A study of Mus musculus with 6 samples.

Results

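The genes described here are 40 mouse genes of the antioxidant defence: the transcription factor NRF2 (gene Nfe2l2) and its regulators, established NRF2 targets, and the enzymes that remove peroxides and superoxide. They were taken by name, by matching the Ensembl gene identifiers of the count files to symbols, a rule that uses no measured value, though the list was drawn up with earlier results of these data known. All 40 were found, each with 1 identifier, among the 32739 genes of the files, and 38 had enough counts to be tested. They were divided into 6 arms by role: NRF2 regulators, the thioredoxin and peroxiredoxin system, the glutathione system, NADPH supply, iron and haem handling, and a remaining arm of superoxide, hydrogen peroxide and quinone enzymes.

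The RNA came from HL-1, a cell line derived from mouse atrial tumour cardiomyocytes that still expresses many contractile genes. All libraries come from cells kept 6 h in hypoxia and then reoxygenated for 1 h, which models ischaemia followed by reperfusion, so no library shows the unstressed state. The times follow the series design, while each sample's description says ReOx7h, so the time after reoxygenation is uncertain. The treated group received 5 µM of BRL (BRL37344 in the labels), an agonist of the β3-adrenergic receptor, and the control group received vehicle, with 3 libraries in each. No source used here says whether the 3 libraries of a group were separate cultures, so the p-values below describe only the spread among these libraries, which may be technical. HL-1 is a single line, and differences measured in it are differences within that line.

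NRF2 is held in the cytoplasm and marked for destruction by KEAP1; oxidants and electrophiles modify KEAP1, NRF2 then accumulates, and it binds with small MAF proteins to antioxidant response elements near its target genes. These targets make and recycle glutathione and thioredoxin, supply the NADPH on which both depend, degrade haem and store the iron released from it. In the heart this system is best known for limiting oxidative damage when oxygen returns after ischaemia. NRF2 itself is controlled largely through protein stability, which messenger RNA does not report.

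The core letters of the antioxidant response element are TGACNNNGC, where N is any base. The stricter form TGACTCAGC, with the N letters fixed, also contains the AP-1 letters TGACTCA. Both strands of the RefSeq promoter windows (build GRCm38.p6), which hold 300 bases around a gene's start, most of them before it, were searched for these letters. Of the 35 members with a window, 9 (25.7%) held TGACNNNGC, against 13.99% of the 27025 genes with a window. The 9 were Nfe2l2, Txnrd1, Srxn1, Prdx1, Gclm, G6pdx, Pgd, Me1 and Sod1. Prdx6, Gclc, Hmox1, Gsr and Gsta4 had no window and were not searched. The stricter TGACTCAGC was found in 2 members, Prdx1 and Me1, and in 0.503% of all genes with a window. Because some genes have several windows, the share was also counted per window, where it was 17.0% for the members and 12.4% for all. The matches are shown for 6 members, to let the letters be read beside the values of these genes given below; capitals mark the core, each sequence is written 5′ to 3′ on the minus strand, and a match describes letters and not a binding site.
Nfe2l2, chr2:75704885-75704913, 236 bases before the start: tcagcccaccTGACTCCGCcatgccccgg
Txnrd1, chr10:82859104-82859132, 88 bases before the start: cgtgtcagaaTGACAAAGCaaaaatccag
Srxn1, chr2:152105542-152105570, 33 bases after the start: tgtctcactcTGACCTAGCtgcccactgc
Prdx1, chr4:116685456-116685484, 129 bases before the start: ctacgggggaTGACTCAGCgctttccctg
Gclm, chr3:122245413-122245441, 130 bases before the start: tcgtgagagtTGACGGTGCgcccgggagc
Me1, chr9:86695902-86695930, 2 bases before the start: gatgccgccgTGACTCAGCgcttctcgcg

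Total expected counts ranged from 4440168 to 5060049 in vehicle and from 6812810 to 8332472 in BRL, so depth did not overlap between the groups. BRL replicate 1 stood apart from the other libraries. Mitochondrially encoded transcripts took 5.03% of its counts, against 16.5% to 21.9% in the other 5 libraries. Its counts differed from those of BRL replicates 2 and 3 with a chi-square per degree of freedom of 89.1 and 76.8, against 4.20 between replicates 2 and 3 and 1.69 to 3.95 among vehicle libraries. Fold changes and calls are therefore given with and without it, and the part that RNA quality or handling played in its values was not tested. All 14 cardiomyocyte markers were detected, with summed levels of 11096 to 11711 CPM (counts scaled to a common library total) in vehicle and 7542 to 8469 CPM in BRL. The sum does not stand for each marker: 6 of the 14 (Myh6, Actc1, Tnnc1, Myl4, Pln and Atp2a2) were lower in every BRL library, 2 (Tnni3 and Gata4) were higher in every one, and the other 6 overlapped. Summed markers of smooth muscle lay at 3606 to 3923 CPM in vehicle and 1792 to 3106 CPM in BRL. Most of this sum was Acta2, at 2474 to 2752 CPM and 1144 to 2091 CPM, while Myh11 stayed at or below 0.294 CPM. The sum therefore does not show that smooth muscle cells were present. Of these 8 markers, 4 (Acta2, Tagln, Smtn and Mylk) were lower in every BRL library and the other 4 overlapped. Summed markers of fibroblasts, endothelium and leukocytes stayed at or below 6.18 CPM in every library. Dcn, Lum and Thy1 (fibroblast), Emcn (endothelium) and Ptprc, Lyz2, Adgre1 and Csf1r (leukocyte) were at 0 throughout. In a bulk library, fewer cells of a type and less RNA per cell cannot be told apart.

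The stressed vehicle cells expressed the antioxidant genes over a very wide range. Levels were compared between genes only per transcript length, as TPM (transcript counts scaled per length to a common total) in the vehicle libraries, because the TPM of BRL replicate 1 were shifted as a whole (median log2 of 0.36 over the vehicle mean across 11897 genes). Gpx3, a secreted glutathione peroxidase, had the highest level of the 40 at 1764 ± 115 TPM (SD, n = 3). It was followed by Sod1, the cytosolic copper-zinc superoxide dismutase, at 986 ± 42.8 TPM, by the ferritin chains Fth1 and Ftl1 at 816 ± 26.7 and 664 ± 41.4 TPM, and by Prdx1 at 452 ± 2.60 TPM. Each of these lay above the next by more than their SDs. Gpx4, which reduces lipid peroxides, and Prdx4, the peroxiredoxin of the endoplasmic reticulum, came next at 329 ± 19.3 and 269 ± 13.0 TPM. Nfe2l2 lay in the middle of the range at 50.6 ± 5.67 TPM, and Keap1 at 16.0 ± 2.12 TPM. Nqo1, the quinone reductase often used as a readout of NRF2, was low at 9.08 ± 2.59 TPM.

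**Figure D1:**
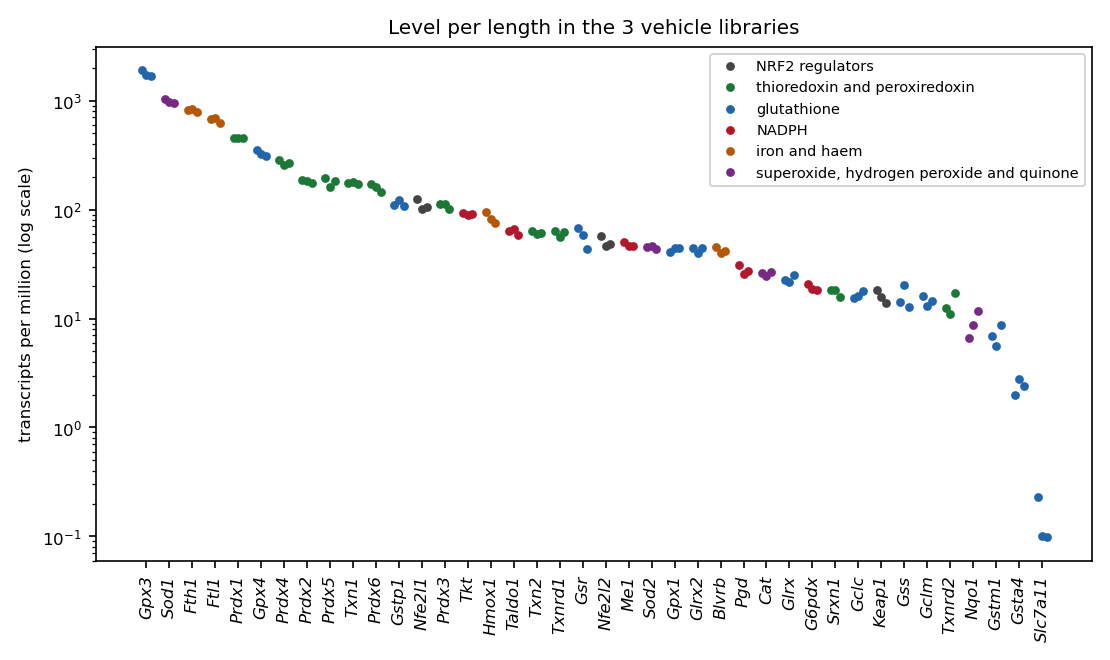
Levels of the 40 genes per transcript length in the 3 vehicle libraries, in TPM on a log axis; points are libraries and genes are ordered by their mean. Gpx3, Sod1 and the ferritin chains stand at the top, and Slc7a11 and Gsta4, which were too low to test, at the bottom.

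With BRL, 1 of the 38 tested members (2.63%) rose and none fell past an adjusted p of 0.05 (edgeR's quasi-likelihood test, Benjamini-Hochberg over 12047 genes). Of all tested genes, 1.01% rose and 1.79% fell by the same rule, so the members' count is near the background. At an unadjusted p under 0.05, 12 members were higher and 2 were lower (31.6% and 5.26%), against 11.6% and 10.8% of all genes; with limma-voom 1 member and with DESeq2 2 members rose, and with neither did a member fall. Fold changes were small: the members' log2 values ran from −0.51 to 0.55 with a median of 0.19, against a median of 0.01 over all tested genes, and 29 were above 0. In 16 members (42.1%) every BRL library lay above every vehicle library, against 16.0% of all genes, and in 4 members (Glrx, Glrx2, Me1 and Cat; 10.5%) every BRL library lay below, against 15.5%. The members are measured in the same libraries and are not independent replicates.

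The count of calls turned on BRL replicate 1. Without that library, 15 of the 38 members rose (39.5%, against 10.3% of all 12064 genes then tested) and 1 fell (2.63%, against 10.9%), while their median hardly moved, to 0.17. The 15 were Nfe2l2, Txn1, Txn2, Srxn1, Prdx1, Prdx5, Gpx1, Taldo1, Tkt, Hmox1, Blvrb, Fth1, Ftl1, Sod1 and Sod2, and the gene that fell was Glrx2. Over all genes, the counts went from 122 to 1240 higher and from 216 to 1315 lower when that library was left out.

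**Figure D2:**
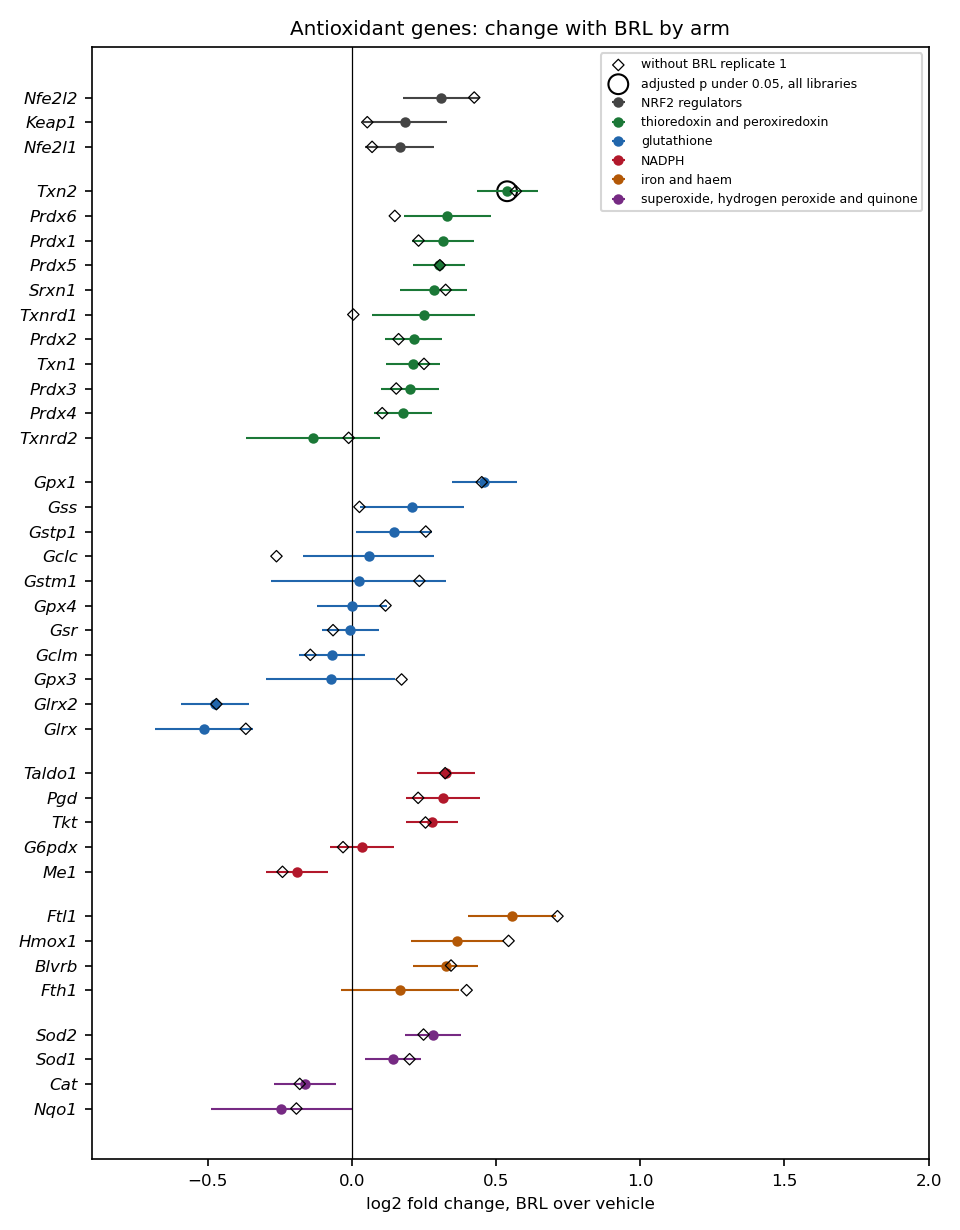
Log2 fold change of BRL over vehicle for the 38 tested genes, grouped by arm, with standard errors; the values without BRL replicate 1 are drawn beside those of all 6 libraries. Most thioredoxin, NADPH and iron genes lie above 0 in both, while the glutathione genes lie on both sides.

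Among the regulators, no member passed the test with all 6 libraries. Nfe2l2 measured 83.4, 70.1 and 70.7 CPM in vehicle replicates 1 to 3 and 77.8, 102 and 97.3 CPM in BRL replicates 1 to 3 (CPM here and below are TMM-scaled). BRL replicates 2 and 3 were above every vehicle library, and BRL replicate 1 was within the vehicle range. The log2 fold change was 0.31 ± 0.13 (SE; edgeR adjusted p = 0.214), and without BRL replicate 1 it was 0.42 (adjusted p = 0.00471). Keap1, the sensor that targets NRF2 for degradation, measured 41.3, 37.1 and 32.6 CPM in vehicle and 49.6, 37.7 and 38.6 CPM in BRL, so that the groups overlapped. Its log2 fold change was 0.18 ± 0.15 (edgeR adjusted p = 0.492), and 0.05 without BRL replicate 1 (0.756). Nfe2l1, the related factor NRF1 that controls proteasome genes, measured 196, 172 and 189 CPM and 237, 208 and 181 CPM, again with overlap (log2 fold change 0.17 ± 0.12, edgeR adjusted p = 0.450). It was 0.07 without BRL replicate 1 (0.568).

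The thioredoxin and peroxiredoxin arm held the 1 member that rose. Thioredoxins reduce oxidised protein thiols with electrons from NADPH, and most peroxiredoxins, though not Prdx6, pass peroxide oxidation on to them. Txn2 (ENSMUSG00000005354), the mitochondrial thioredoxin, measured 46.2, 46.2 and 46.4 CPM in vehicle and 64.6, 74.7 and 62.3 CPM in BRL. The vehicle libraries were almost identical and all 3 BRL libraries were higher. The vehicle counts were 206, 220 and 229, and counting error alone would spread such counts more. The vehicle SD is thus too small to be read as the error of the measurement. The same holds for the BRL values of Prdx5, Gpx1 and Alas1 given below. From 46.3 ± 0.143 to 67.2 ± 6.62 CPM (SD, n = 3), Txn2 rose 1.45-fold, which is 0.54 ± 0.11 (SE) on the log2 scale, with an adjusted p of 0.0386 by edgeR's test. The adjusted p was 0.00115 without BRL replicate 1, but it passed 0.05 when any other library was left out: 0.158, 0.197 and 0.209 without vehicle replicates 1, 2 and 3, and 0.0969 and 0.0618 without BRL replicates 2 and 3. Thinned to equal depth, the libraries gave 0.0646.

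The cytosolic thioredoxin Txn1 measured 108, 119 and 114 CPM in vehicle and 125, 137 and 131 CPM in BRL. Every BRL library was above every vehicle library, by a small margin, and the log2 fold change of 0.21 ± 0.09 did not pass (edgeR adjusted p = 0.226, and 0.0258 when BRL replicate 1 was left out). The thioredoxin reductases, the selenoenzymes that recycle thioredoxin, did not follow this order. Txnrd1, the cytosolic form and an NRF2 target, measured 133, 124 and 139 CPM in vehicle and 207, 138 and 127 CPM in BRL. BRL replicate 1 alone was high and the other BRL libraries lay among the vehicle values: the log2 fold change was 0.25 ± 0.18 (edgeR adjusted p = 0.444), and 0.01 without that library. Txnrd2, the mitochondrial form, had a log2 fold change of −0.13 ± 0.23 (edgeR adjusted p = 0.776), and −0.01 without BRL replicate 1 (0.979).

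The 6 peroxiredoxin genes all had positive fold changes, with log2 values from 0.18 (Prdx4) to 0.33 (Prdx6), a median of 0.26, and a median of 0.16 without BRL replicate 1. In 5 of the 6 (83.3%, against 16.0% of all genes), every BRL library was above every vehicle library; the exception was Prdx6, at 158, 151 and 142 CPM in vehicle and 235, 174 and 158 CPM in BRL. None passed the test with all libraries. Prdx5, found in mitochondria, peroxisomes and cytosol, measured 79.6, 73.4 and 80.1 CPM in vehicle and 96.1, 96.4 and 94.9 CPM in BRL. The BRL values lay close together and well clear of the vehicle values, and the log2 fold change was 0.30 ± 0.09 (edgeR adjusted p = 0.105, and 0.0138 when BRL replicate 1 was left out). Prdx1, the abundant cytosolic form with TGACTCAGC in its promoter window, measured 249, 256 and 272 CPM in vehicle and 362, 304 and 302 CPM in BRL. BRL replicate 1 was the highest and no library overlapped (log2 fold change 0.32 ± 0.11, edgeR adjusted p = 0.138, and 0.0232 when BRL replicate 1 was left out).

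Sulfiredoxin (Srxn1), which repairs overoxidised peroxiredoxins and is a sensitive NRF2 target, measured 29.4, 31.5 and 26.6 CPM in vehicle and 33.8, 33.9 and 38.6 CPM in BRL. The groups did not overlap, and the mean went from 29.1 ± 2.47 to 35.4 ± 2.76 CPM. The log2 fold change of 0.28 ± 0.12 did not pass with all libraries (edgeR adjusted p = 0.203) and did without BRL replicate 1 (0.0477). Across the arm, 10 of 11 genes were above 0, 8 (72.7%, against 16.0% of all genes) had every BRL library above every vehicle library, and the median log2 fold change was 0.25, or 0.16 without BRL replicate 1. Without that library 5 of the 11 rose (45.5%, against 10.3% of all genes).

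**Figure D3:**
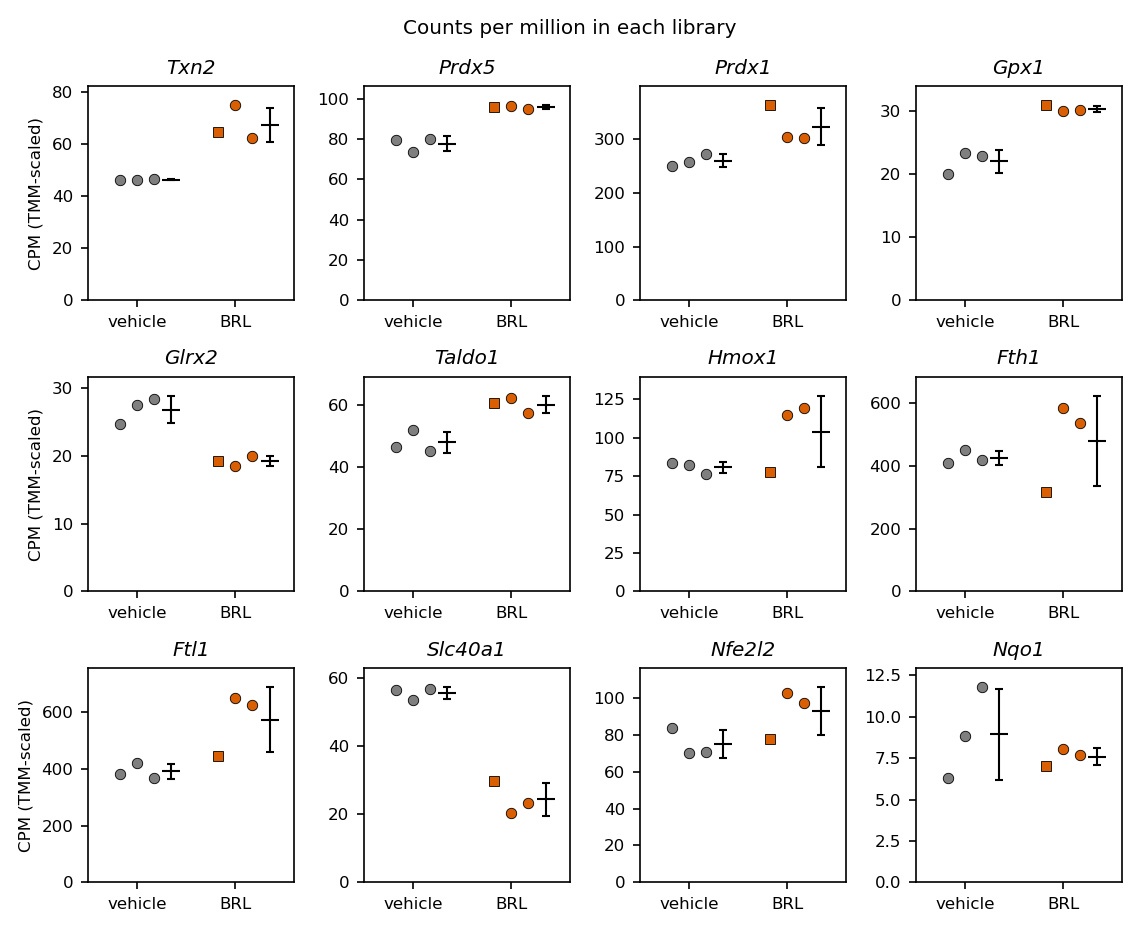
CPM (TMM-scaled) of 12 genes in each library, with the group mean and SD beside the points; the square marks BRL replicate 1. Txn2, Prdx5, Prdx1, Gpx1 and Taldo1 are higher in all 3 BRL libraries and Glrx2 is lower, whereas Hmox1, Fth1 and Nfe2l2 are higher in BRL replicates 2 and 3 only.

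The glutathione arm did not share a direction: 6 of its 11 tested genes were above 0 and 5 below, with a median log2 fold change of 0.00 (0.03 without BRL replicate 1), and none passed with all libraries. Glutathione is built in sequential steps, the first by glutamate-cysteine ligase with its catalytic (Gclc) and modifier (Gclm) subunits, both standard NRF2 targets. Gclc measured 32.7, 36.7 and 40.1 CPM in vehicle and 53.5, 28.9 and 31.9 CPM in BRL. BRL replicate 1 was the highest of the 6 and the other BRL libraries were below every vehicle library, so its log2 fold change was 0.06 ± 0.23 with that library (edgeR adjusted p = 0.906) and −0.26 without it (0.103). Gclm measured 48.2, 42.0 and 46.0 CPM in vehicle and 47.9, 41.8 and 40.1 CPM in BRL, with overlap (log2 fold change −0.07 ± 0.11, edgeR adjusted p = 0.762), and had a log2 fold change of −0.14 without BRL replicate 1 (0.286).

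Slc7a11, the cystine transporter that brings in the cysteine for this step, was barely transcribed: 2, 1 and 1 counts in vehicle and 0 in all 3 BRL libraries. A count of 0 allows up to 3 counts, or 0.360 to 0.440 CPM of the library total in the BRL libraries, for counting error only, so no difference was detectable at this depth. Gsta4, a glutathione transferase that conjugates lipid aldehydes, had 5, 8 and 7 counts in vehicle and 17, 4 and 11 in BRL and was also too low to test.

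The 2 members of the arm with the smallest p had fold changes of opposite sign. Gpx1, the ubiquitous selenium-dependent glutathione peroxidase, measured 20.0, 23.3 and 22.9 CPM in vehicle and 30.8, 29.98 and 30.2 CPM in BRL. The BRL libraries were nearly equal and all above vehicle: 22.0 ± 1.82 against 30.3 ± 0.448 CPM, or 0.46 ± 0.11 on the log2 scale (edgeR adjusted p = 0.0703, and 0.0126 when BRL replicate 1 was left out). Glrx2, a mainly mitochondrial glutaredoxin that removes glutathione from protein thiols, measured 24.7, 27.5 and 28.4 CPM in vehicle and 19.3, 18.6 and 20.0 CPM in BRL. Here all BRL libraries were lower, with 26.8 ± 1.94 against 19.3 ± 0.728 CPM and a log2 fold change of −0.47 ± 0.12 (edgeR adjusted p = 0.0706, and 0.0141 when BRL replicate 1 was left out). Its cytosolic counterpart Glrx measured 18.4, 18.9 and 21.3 CPM and 10.9, 14.5 and 15.6 CPM, also without overlap (log2 fold change −0.51 ± 0.17, edgeR adjusted p = 0.133). With BRL replicate 1 left out it was −0.37 (0.0748).

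Gpx3, the most abundant member, measured 1833, 1774 and 1714 CPM in vehicle and 1074, 2077 and 1907 CPM in BRL. BRL replicate 1 was far below and the other BRL libraries above every vehicle library. The log2 fold change was −0.07 ± 0.22 (edgeR adjusted p = 0.880), and 0.17 without BRL replicate 1 (0.114). The rest of the arm (Gss, Gsr, Gpx4, Gstm1 and Gstp1) had log2 fold changes of −0.01 to 0.21, or −0.07 to 0.26 without BRL replicate 1, and overlapping groups.

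None of the 5 NADPH genes passed with all libraries. The pentose phosphate pathway makes NADPH in an oxidative branch (G6pdx, Pgd) and interconverts sugars in a non-oxidative branch (Taldo1, Tkt), and malic enzyme (Me1) is a separate cytosolic source. Transaldolase (Taldo1) measured 46.4, 51.8 and 45.2 CPM in vehicle and 60.6, 62.2 and 57.2 CPM in BRL. Transketolase (Tkt) measured 157, 163 and 155 CPM in vehicle and 199.7, 197 and 180.5 CPM in BRL. For both, every BRL library was above every vehicle library. Their log2 fold changes were 0.33 ± 0.10 and 0.28 ± 0.09 (edgeR adjusted p = 0.113 and 0.129), and both rose without BRL replicate 1 (0.0223 and 0.0185).

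Pgd, which yields the second NADPH of the oxidative branch, measured 41.0, 34.8 and 39.7 CPM in vehicle and 53.7, 48.6 and 41.7 CPM in BRL (log2 fold change 0.32 ± 0.13, edgeR adjusted p = 0.195), and had 0.23 without BRL replicate 1 (0.129). G6pdx, the rate-limiting enzyme of the branch, differed by 0.03 ± 0.11 on the log2 scale (edgeR adjusted p = 0.885), and by −0.03 without BRL replicate 1 (0.859). Me1, whose promoter window holds the same TGACTCAGC as that of Prdx1, measured 103, 101 and 98.9 CPM in vehicle and 95.6, 77.3 and 92.6 CPM in BRL. It lay lower in every BRL library, with a log2 fold change of −0.19 ± 0.11 (edgeR adjusted p = 0.340), and −0.24 without BRL replicate 1 (0.0656). Prdx1 lay higher in every BRL library, but neither gene passed with all libraries. Me1 was picked with its values in view, and any part played by the shared letters was not tested. The arm's median was 0.28, and 0.23 without BRL replicate 1.

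The iron and haem arm had, of the 6 arms, the widest spread over BRL libraries: median log2 ratios to the vehicle mean were 0.07 in BRL replicate 1 and 0.48 and 0.45 in replicates 2 and 3. Haem oxygenase 1 (Hmox1) opens the haem ring and frees its iron, and ferritin, made of heavy (Fth1) and light (Ftl1) chains, stores the iron. The arm also holds biliverdin reductase B (Blvrb). Hmox1 measured 83.4, 82.4 and 76.4 CPM in vehicle and 77.8, 115 and 119 CPM in BRL. BRL replicate 1 lay within the vehicle range and the other BRL libraries above it, giving a log2 fold change of 0.37 ± 0.16 with all libraries (edgeR adjusted p = 0.225) and 0.54 without BRL replicate 1 (0.000305). Fth1 measured 409.9, 451 and 418 CPM in vehicle and 316, 584 and 536 CPM in BRL. Here BRL replicate 1 was the lowest of all libraries and the other BRL libraries were the highest: the log2 fold change was 0.17 ± 0.20 (edgeR adjusted p = 0.673), and 0.40 without that library (0.00165).

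Ftl1 (ENSMUSG00000050708) measured 383, 420.4 and 368 CPM in vehicle and 444, 651 and 626 CPM in BRL. All BRL libraries were above vehicle, BRL replicate 1 by the least. Its log2 fold change of 0.55 ± 0.15 had the highest value of the 38 members but missed the threshold (edgeR adjusted p = 0.0899); without BRL replicate 1 it was 0.71 (2.1e-05). Ferritin genes have many near-identical pseudogene copies, and 3 of the 6 Ftl1 counts were not whole, so reads were shared between loci and its level is less certain. Such counts also occurred in Fth1 and in members of other arms, named in the processing section below. Blvrb measured 26.0, 23.9 and 21.9 CPM in vehicle and 29.5, 30.4 and 30.1 CPM in BRL, with no overlap (log2 fold change 0.33 ± 0.11, edgeR adjusted p = 0.144, and 0.0421 when BRL replicate 1 was left out). All 4 genes of the arm rose without BRL replicate 1, against 10.3% of all genes, and the arm's median was 0.35 with it and 0.47 without.

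Ferritin and the iron exporter ferroportin (Slc40a1) are known to share an iron-responsive element, a hairpin in the 5′ untranslated region to which iron regulatory proteins bind and block translation when iron is scarce. A search of the first 300 bases of 21291 protein-coding transcripts (GENCODE M21, GRCm38) for the loop letters CAGTGN between 2 runs of 5 bases that pair with each other (G with U allowed), with a C before the first run, found 24 (0.113%). Among the 153 genes considered here (the 40 members and a wider list of 113 described below) it found Fth1, Ftl1 and Slc40a1 alone. The search took a single transcript per gene and did not reach beyond its first 300 bases. It therefore does not show that other genes of the lists, Tfrc among them, lack such an element elsewhere. The hairpins are shown because all 3 genes carry them, though their counts did not share a direction. Counts of messenger RNA do not report control of translation. Each hairpin is written 5′ to 3′ on the transcript's strand, with the loop CAGTGN in capitals.
Fth1, chr19:9982732-9982761, plus strand: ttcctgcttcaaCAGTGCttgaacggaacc
Ftl1, chr7:45459778-45459807, minus strand: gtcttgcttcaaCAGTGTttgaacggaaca
Slc40a1, chr1:45925464-45925493, minus strand: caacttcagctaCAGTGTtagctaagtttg

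Slc40a1 (ENSMUSG00000025993) measured 56.3, 53.5 and 56.6 CPM in vehicle and 29.6, 20.3 and 23.2 CPM in BRL. All BRL libraries were far below vehicle. From 55.4 ± 1.69 to 24.4 ± 4.80 CPM (SD, n = 3), it fell by 1.18 ± 0.15 on the log2 scale (SE; edgeR adjusted p = 0.00633), and by 1.34 without BRL replicate 1 (1.33e-06). The adjusted p was 0.0508 and 0.0634 when vehicle replicate 1 or 3 was left out. Tfrc, the transferrin receptor that takes up iron, chosen after its values were seen, measured 909, 757 and 884 CPM in vehicle and 1074, 916 and 875 CPM in BRL, with overlap (log2 fold change 0.17 ± 0.13, edgeR adjusted p = 0.468). With BRL replicate 1 left out it was 0.08 (0.520).

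In the last arm, superoxide dismutases turn superoxide into hydrogen peroxide, catalase (Cat) breaks that down, and NQO1 reduces quinones. None passed with all libraries, and the median log2 fold change was −0.01, and 0.0098 without BRL replicate 1. Sod2, the mitochondrial manganese enzyme, measured 107, 118 and 109 CPM in vehicle and 143, 138 and 126 CPM in BRL. Sod1 measured 372, 371 and 363 CPM in vehicle and 377, 433 and 411 CPM in BRL. Neither overlapped, though BRL replicate 1 exceeded the highest vehicle library of Sod1 only narrowly. The log2 fold changes were 0.28 ± 0.10 for Sod2 and 0.14 ± 0.10 for Sod1 (edgeR adjusted p = 0.142 and 0.418), and both rose without BRL replicate 1 (0.0329 and 0.0379). Cat measured 42.2, 42.0 and 45.6 CPM in vehicle and 39.97, 35.3 and 40.6 CPM in BRL, lower in every BRL library (log2 fold change −0.16 ± 0.11, edgeR adjusted p = 0.403), and at −0.18 without BRL replicate 1 (0.198). Nqo1 measured 6.28, 8.81 and 11.8 CPM in vehicle and 7.01, 8.02 and 7.70 CPM in BRL; the vehicle libraries spread around the BRL values (log2 fold change −0.25 ± 0.24, edgeR adjusted p = 0.594). With BRL replicate 1 left out the value was −0.19 (0.608).

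Setting the arms side by side, the median log2 ratio to the vehicle mean was 0.32, 0.21 and 0.21 for the thioredoxin arm and 0.33, 0.31 and 0.11 for the NADPH arm in BRL replicates 1, 2 and 3. Both arms thus lay above 0 in all 3 BRL libraries, as did the regulators and the iron and haem arm. The vehicle libraries stood at −0.02 to 0.02 for the thioredoxin arm and −0.03 to 0.03 for the NADPH arm. For the other 2 arms, lying above 0 did not set BRL apart. Vehicle replicate 1 stood at 0.16 for the regulators, above BRL replicate 3. For iron and haem, vehicle replicate 2 stood at 0.06 and BRL replicate 1 at 0.07. In the wider list described below, the thioredoxin genes instead stood at −0.31, −0.17 and −0.10. The NADPH genes of that list stood at −0.12, 0.01 and −0.09. The glutathione arm stood at −0.10, 0.10 and −0.06 and the superoxide, hydrogen peroxide and quinone arm at −0.04, 0.04 and 0.03. The 3 regulators stood at 0.35, 0.16 and 0.06. Differences between arms were not tested.

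**Figure D4:**
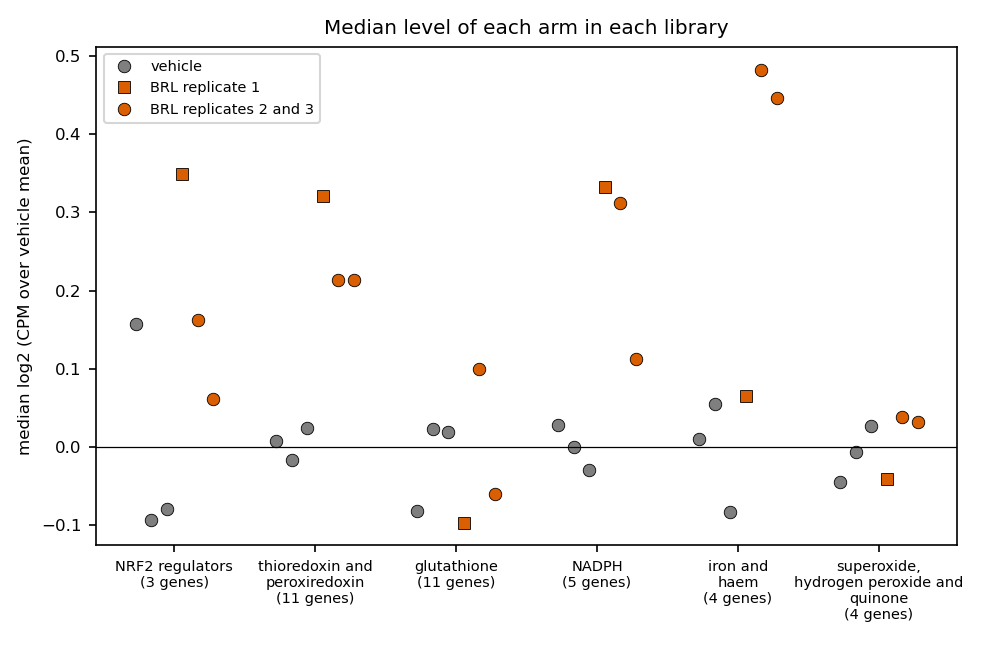
Median log2 ratio of each library to the vehicle mean over the tested genes of each arm, with one point per library. The thioredoxin, NADPH, regulator and iron arms lie above 0 in all BRL libraries, the iron arm clearly so only in replicates 2 and 3. For the regulators, vehicle replicate 1 lies near BRL replicate 2 and above BRL replicate 3. The glutathione arm and the superoxide, hydrogen peroxide and quinone arm lie around 0.

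Beyond the 40 members, a wider list of 113 genes of the same arms was examined, of which 93 were tested. Of these, 1 rose (Slc3a2, 1.08%) and 2 fell (Msrb3 and Slc40a1, 2.15%), close to the 1.01% and 1.79% of all genes. At an unadjusted p under 0.05, 14 were higher and 9 lower (15.1% and 9.68%, against 11.6% and 10.8% of all genes). Without BRL replicate 1, 13 rose and 8 fell (14.1% and 8.70%, against 10.3% and 10.9%). The median log2 fold change was 0.07 with and without that library, below the members' 0.19 and 0.17. By arm and with all libraries, the wider medians were 0.18 for regulators, −0.20 for thioredoxin and 0.07 for glutathione. They were −0.07 for NADPH, 0.05 for iron and haem, and 0.14 for superoxide, hydrogen peroxide and quinone genes. Slc3a2 (ENSMUSG00000010095), the heavy chain that carries the cystine transporter Slc7a11 and several other amino acid transporters to the membrane, measured 306, 253 and 272 CPM in vehicle and 462, 479 and 412 CPM in BRL. All BRL libraries were clear of vehicle, in contrast to the near absence of Slc7a11. Slc3a2 rose from 277 ± 26.7 to 451 ± 34.9 CPM, a log2 fold change of 0.70 ± 0.11 (edgeR adjusted p = 0.0176), and 0.69 without BRL replicate 1 (0.000123); its counts were not whole in any library. For Slc3a2 the adjusted p was 0.0637, 0.134 and 0.151 without vehicle replicates 1, 2 and 3 and 0.0645 without BRL replicate 2.

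Msrb3 (ENSMUSG00000051236), a methionine sulfoxide reductase that repairs oxidised protein, measured 173, 183 and 177 CPM in vehicle and 76.8, 101 and 124 CPM in BRL. It lay lower in all BRL libraries, most in replicate 1, and fell by 0.82 ± 0.16 on the log2 scale (edgeR adjusted p = 0.0385; −0.65 and 0.000165 without BRL replicate 1). For Msrb3 the adjusted p was 0.144, 0.184 and 0.191 without vehicle replicates 1, 2 and 3 and 0.102 without BRL replicate 2.

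The wider genes of smallest p in the other 3 arms missed the threshold with all libraries. Sqstm1, the autophagy receptor p62 that binds KEAP1, measured 299.6, 273 and 259.9 CPM in vehicle and 422, 383 and 352 CPM in BRL. All BRL libraries were higher, with a log2 fold change of 0.47 ± 0.11 (edgeR adjusted p = 0.0584), and Sqstm1 rose without BRL replicate 1 (0.41, adjusted p = 0.00200) and with DESeq2 (adjusted p = 0.00940). Nadk2, the mitochondrial NAD kinase, measured 209, 182 and 179.6 CPM in vehicle and 129, 149 and 147 CPM in BRL. All BRL libraries were lower, with a log2 fold change of −0.43 ± 0.11 (edgeR adjusted p = 0.0747), and Nadk2 fell without BRL replicate 1 (−0.36, adjusted p = 0.00617) and with DESeq2 (adjusted p = 0.0338). Ugdh, which makes UDP-glucuronic acid for conjugation, measured 66.6, 73.0 and 77.4 CPM in vehicle and 49.8, 56.0 and 63.5 CPM in BRL. It too lay lower in every BRL library, and its log2 fold change of −0.36 ± 0.12 did not pass with all libraries (edgeR adjusted p = 0.136) or without BRL replicate 1 (−0.27, 0.0538).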

How the data were processed

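RNA-seq of 6 HL-1 libraries was analysed from RSEM expected counts that the authors deposited per gene. The tools named are cutadapt, RSEM 1.17, Bowtie and edgeR with build NCBIM37, per the submitters' processing notes; their settings and any use of strand are not stated there. The deposited RSEM fraction per gene was multiplied by 1000000 to give TPM. Groups and replicate numbers come from the sample titles, and vehicle was assigned a dose of 0. The test on rounded expected counts was that of edgeR 4.0.16 in R 4.3.3 (filterByExpr, minimum count 10, TMM, quasi-likelihood F-test on group), with Benjamini-Hochberg adjustment over 12047 genes and a threshold of 0.05. SE was obtained by dividing the size of the log2 fold change by the square root of the F statistic. The test was tried on simulated counts.

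The members, the wider list and the arms were chosen with earlier results of these data known. Values in every library are given for members past the threshold with all libraries or without BRL replicate 1, the 2 of smallest p per arm and textbook NRF2 genes; of the wider list, genes past the threshold and that of smallest p per arm. Glrx, Prdx6, Gpx3, Pgd and Me1 fall outside this rule and were picked with their values in view. The same holds for Tfrc, Mt1, Mt2, Alas1 and Mafk of the wider list. Counts not whole within 0.005 occurred in 13 members. In all 6 libraries this held for Keap1, Prdx5, Gclm, Gstp1, Glrx2 and Sod2, and in 5 for Prdx1 and Txnrd2. It held in 3 libraries for Gss and Ftl1, and in 2 for Txn2, Prdx2 and Fth1. Exons of 10 members overlap another gene in GENCODE M21, among them Prdx2 with Junb, so reads may be shared. Alternatives were 14 other settings, including DESeq2 1.42.0 and limma 3.58.1. Symbols matched 88.4% of identifiers. Sequences and overlaps come from GRCm38, another build than that of the counts.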

Additional observations from a re-analysis of the deposited data

How the results depend on the processing

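The 14 alternatives were DESeq2 size factors, upper-quartile scaling, no filter on low counts, DESeq2's Wald test, limma-voom, the replicate number as a block, libraries thinned to equal depth, removal of mitochondrially encoded genes, and leaving out each library in turn. Against 122 genes higher and 216 lower over all genes, no filter gave 282 and 330, DESeq2 242 and 350, and the replicate block 63 higher. Against 1 member that rose, no filter and DESeq2 each gave 2 (Txn2 and Ftl1), the thinned libraries 0 and the replicate block 0, with an adjusted p of 0.0726 for Txn2 under the block. Against 1 gene of the wider list that rose, upper-quartile scaling gave 2, no filter 5 and DESeq2 3. Same-numbered libraries did not clearly deviate together (correlations of 0.10, −0.02 and −0.02, against −0.11 to 0.13 for differently numbered ones). With 3 libraries per group and BRL replicate 1 far from the others, this cannot show whether the numbers pair the samples. Leaving out one library gave 17 to 1240 genes higher and 15 to 1315 lower over all genes, 0 to 15 members that rose and 0 to 1 that fell, and 0 to 13 and 0 to 8 for the wider list; the highest counts are all without BRL replicate 1. The thioredoxin arm's median ran from 0.16 to 0.30 and that of the superoxide, hydrogen peroxide and quinone arm from −0.031 to 0.070. Members near 0 changed sign without passing the threshold: over the left-out libraries Gclc ran from −0.26 to 0.22, Gsr from −0.065 to 0.038, Gpx3 from −0.25 to 0.17, Gpx4 from −0.073 to 0.12, Gstm1 from −0.21 to 0.23, G6pdx from −0.030 to 0.082 and Nqo1 from −0.43 to 0.0060. Gpx4 was −0.0076 with upper-quartile scaling, −0.0078 with limma-voom, −0.0066 under the replicate block and −0.0048 when thinned; Gsr was 0.019 without a filter and 0.0054 without mitochondrially encoded genes; Gstm1 was −0.019 with limma-voom. The cause of these shifts was not tested.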

Other observations

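Mt1 and Mt2 of the wider list, chosen after their values were seen, had the order of libraries seen in Fth1 and Gpx3. The rest of the iron arm did not have it. Hmox1 had BRL replicate 1 within the vehicle range, and Ftl1 and Blvrb had it above. The metallothionein Mt1, a cysteine-rich metal-binding protein, measured 91.7, 74.9 and 75.8 CPM in vehicle and 59.7, 145 and 127 CPM in BRL replicates 1, 2 and 3. Mt2 measured 29.8, 26.2 and 24.5 CPM in vehicle and 19.5, 53.5 and 52.4 CPM in BRL. In both, BRL replicate 1 was the lowest of all 6 libraries and the other BRL libraries were the highest. The log2 fold changes were 0.45 ± 0.28 and 0.64 ± 0.34 with all libraries (edgeR adjusted p = 0.384 and 0.303), and 0.76 and 0.99 without BRL replicate 1 (0.000133 and 2.21e-05).

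Other genes of the wider list, also chosen after their values were seen, were higher in every BRL library than in every vehicle library. Of the 93 tested genes of that list, 16 (17.2%) had this order, near the 16.0% of all genes. The reverse order held for 12 (12.9%), against 15.5%. Alas1, the first enzyme of haem synthesis, measured 44.2, 42.8 and 46.0 CPM in vehicle and 56.8, 57.9 and 57.4 CPM in BRL, the BRL libraries lying close together and clear of vehicle (log2 fold change 0.37 ± 0.09, edgeR adjusted p = 0.0723). It rose without BRL replicate 1 (0.38, adjusted p = 0.00583). Mafk, a small MAF partner of NRF2, measured 92.4, 85.6 and 79.9 CPM in vehicle and 117, 144 and 109 CPM in BRL, also without overlap (log2 fold change 0.52 ± 0.13, edgeR adjusted p = 0.0706). Mafk rose without BRL replicate 1 (0.56, adjusted p = 0.00323) and with DESeq2 (adjusted p = 0.0232).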
